A study of Ipomoea batatas with 18 samples.

Results

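Of the 46840 unigenes measured in sweetpotato (Ipomoea batatas) roots, 92 (0.196%) reached 300 FPKM or more in each of the 18 libraries, and these constantly abundant unigenes are described here. A unigene is a transcript built by de novo assembly, and FPKM is its fragment number scaled by transcript length and by the size of the library, so levels can be compared between unigenes. The libraries came from roots of 2 cultivars at 3 ages. The high-starch cultivar Chuanshu 218 at 30, 65 and 100 days and the low-starch cultivar 15-94 at 30, 65 and 100 days gave 3 libraries each. All plants grew in greenhouse pots under natural light, and TruSeq stranded mRNA libraries were made from Trizol-extracted RNA freed of DNA. The labels name the tissue only as roots and do not tell whether replicate libraries came from separate plants, so the p-values rest on a spread between libraries that may be technical. Starch class and cultivar coincide and cannot be told apart.

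A small number of transcripts usually makes up a large part of the messenger RNA of a plant organ. Some serve functions that every cell needs, such as translation elongation factors, ribosomal proteins, ubiquitin, actin and tubulin. Others serve the organ itself: in the swelling sweetpotato root, the storage protein sporamin and the starch-degrading enzyme beta-amylase are well-known abundant products. Which of these kinds each unigene belongs to was not determined, because the files do not pair unigene IDs with gene names and 0 IDs were found in the RefSeq gene table of assembly IBA_r1.0. For the same reason root and leaf markers could not be looked up to check the tissue label. The unigenes are therefore called by their rank of mean FPKM over the 18 libraries (rank 1 is the highest), and an ID is given only for the extremes.

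The FPKM sum of a library ran from 731156 to 1471677. The number of reads is not given, but low FPKM values lie on steps that show what 1 read was worth relative to the library with the smallest step. On the log2 scale this relative value averaged 0.50 ± 0.38 in high-starch and 1.13 ± 0.40 in low-starch libraries (SD, n = 9 each), and it was highest, at 2, in low-starch 30 d replicate 1. A larger value means fewer reads, provided that no further scaling between libraries was applied, a point not given in the sources used here. Low-starch 65 d replicate 3 and low-starch 100 d replicate 3 stood apart in the share held by the most abundant unigenes, and results that rest on them are given with and without them.

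The number of unigenes dropped steeply with the number of libraries asked for. At least 300 FPKM was reached by 1327 unigenes in 1 or more libraries, by 115 in all 9 high-starch libraries and by 155 in all 9 low-starch libraries. Of these, 23 passed in all high-starch libraries but not in all 18, and 63 did so in the low-starch libraries. Another 354 unigenes had a mean of 300 FPKM or more over the 18 libraries but fell short in at least 1 of them. Missing in exactly 1 library were 30 unigenes, 7 of them in high-starch 30 d replicate 2, 5 in high-starch 30 d replicate 1 and 5 in low-starch 65 d replicate 3. The lowest values of the unigenes just inside the limit were 302.6, 310.05 and 312.09 FPKM, and those just outside were 298.3, 297.96 and 297.94 FPKM, so the limit cuts through a continuous range. With each library first rescaled to an FPKM sum of 1000000, 90 unigenes reached 300 in all 18, 82 of them among the 92.

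The 92 unigenes covered a wide range of levels. Mean FPKM ran from 446 to 21898, with a median of 1299 and quartiles of 793 and 2028. Among all unigenes of the table they took places from 1 to 265 by mean FPKM, with a median place of 70.5. A mean of 5000 FPKM or more was reached by 8 of them, 16 lay between 2000 and 5000, 32 between 1000 and 2000, 34 between 500 and 1000 and 2 below 500. These 5 classes, from the highest down, held on average 7.61, 4.65, 4.63, 2.44 and 0.093% of the FPKM sum of a library.

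Iba_29196 had the highest mean of the whole table. Its levels in the high-starch libraries ran from 3182 to 10616 FPKM with a median of 4405, against 3488 to 184339 FPKM with a median of 10004 in the low-starch libraries. The low-starch range was set by 100 d replicate 3 at 184339 FPKM and 65 d replicate 3 at 78616 FPKM, and the other 7 low-starch libraries reached at most 21883 FPKM. At the other end, Iba_17925 had the lowest mean of the 92. It had 312 to 653 FPKM with a median of 405 in high-starch and 352 to 571 FPKM with a median of 470 in low-starch libraries, and the ranges of both cultivars lay over each other.

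**Figure D1:**
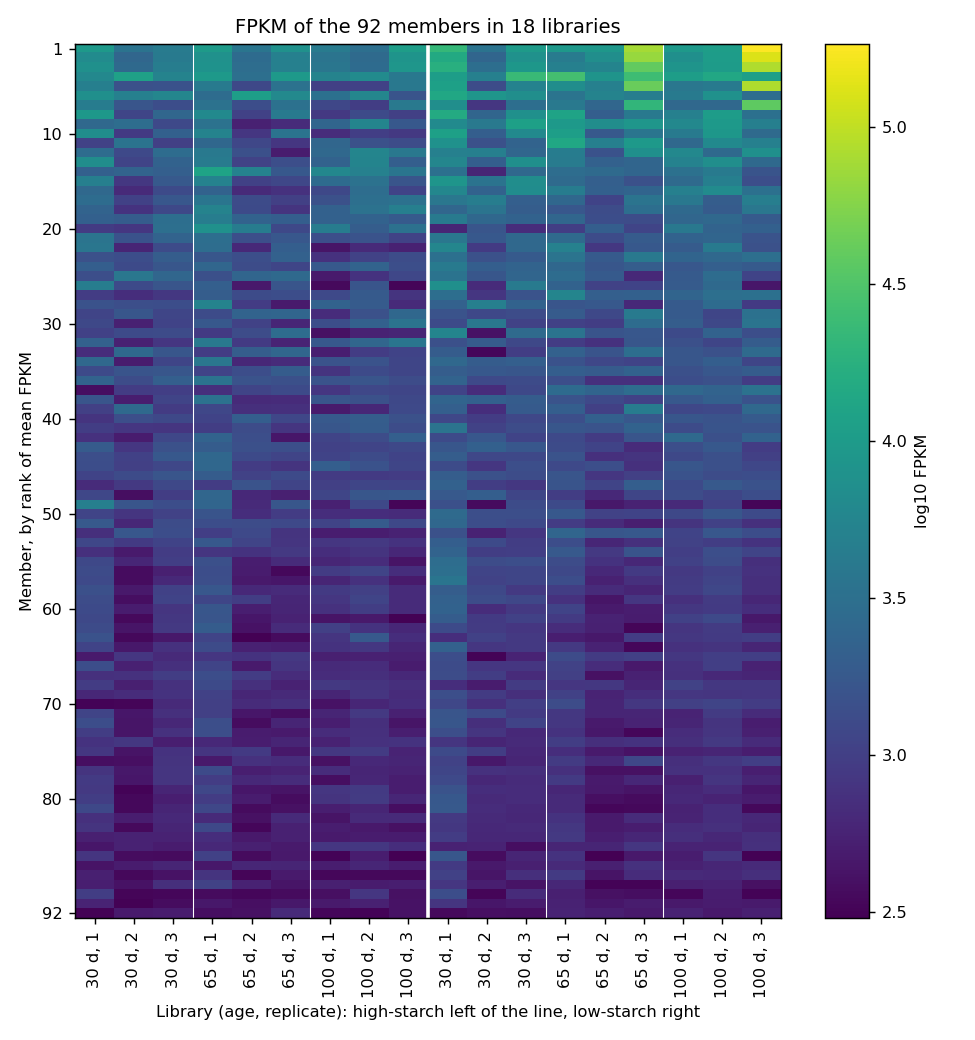
FPKM (colour, log10 scale) of each of the 92 unigenes, from rank 1 at the top to rank 92 at the bottom, in each of the 18 libraries, with high-starch libraries left of the thick line and low-starch libraries right of it. The upper rows are brightest in low-starch 65 d and 100 d replicate 3, where Iba_29196 had 78616 and 184339 FPKM.

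Together the 92 unigenes held 14.8% ± 1.83 of the FPKM sum in high-starch libraries and 24.0% ± 9.59 in low-starch libraries (SD, n = 9 each). At 30 days the shares were 17.03, 14.52 and 15.0% in the high-starch libraries and 23.3, 15.8 and 20.2% in the low-starch libraries. At 65 days they were 18.4, 13.03 and 14.1% in high-starch and 22.6, 16.6 and 34.2% in low-starch libraries. At 100 days they were 12.7, 15.1 and 13.8% in high-starch and 18.0, 20.1 and 45.0% in low-starch libraries. The cultivars overlapped at 30 and 65 days, while at 100 days each low-starch library lay above each high-starch one. Without the 2 low-starch libraries that stood apart, the low-starch mean was 19.5% ± 2.88 (SD, n = 7). These shares belong to unigenes chosen by their level in the same libraries, so they are given as a description with no test.

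The excess in the 2 libraries sat in very few unigenes. Ranks 1 to 5 held 1.65 to 3.63% of the FPKM sum in high-starch libraries and 1.75 to 5.55% in the other 7 low-starch libraries. They held 21.1% in low-starch 65 d replicate 3 and 33.7% in low-starch 100 d replicate 3. The ranks rest on means over all 18 libraries, these 2 included, so part of this jump is built in. Rank 4 was not raised in the 100-day library (11321 FPKM, its low-starch median). Rank 7, counted with ranks 6 to 92, had 20540 FPKM in the 65-day library and 37355 FPKM in the 100-day one. In both of these libraries, 9 of the 92 unigenes were higher than in all 16 others, those of ranks 1, 2, 3, 5, 7, 12, 29, 33 and 37. The lower value of the pair was 3.59 times the highest value elsewhere for rank 1, 4.59 times for rank 2 and 3.70 times for rank 5, but only 1.03 times for rank 33. Below their own median of the 16 other libraries were 47 of the 92 in the 65-day library and 48 in the 100-day library. The median ratio to that median was 0.98 and 0.97, so the 92 as a whole were near their level elsewhere. The remaining 87 unigenes, ranks 6 to 92, held 12.1% ± 1.68 of the FPKM sum in high-starch and 14.54% ± 2.20 in low-starch libraries (SD, n = 9 each). Taken as a share of what ranks 1 to 5 left, they held 12.5% ± 1.74 in high-starch and 16.1% ± 1.94 in low-starch libraries, with ranges of 10.5 to 15.6% and 12.97 to 18.8%.

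**Figure D2:**
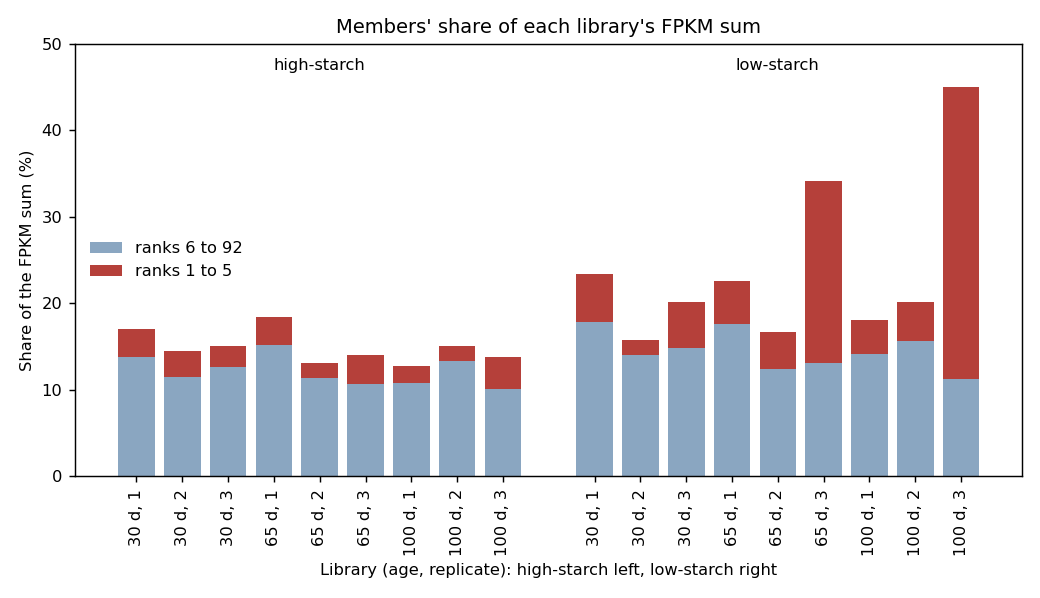
Share of each library's FPKM sum (percent, bars from 0) held by ranks 1 to 5 and by ranks 6 to 92 in the 9 high-starch libraries (left) and the 9 low-starch libraries (right), 1 bar per library. Ranks 1 to 5 stand at 21.1% and 33.7% in low-starch 65 d and 100 d replicate 3, and between 1.65 and 5.55% in the 16 other libraries.

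How evenly the sum was spread over the 92 unigenes can be given as an effective number, the number of equally abundant unigenes that would be as uneven. It was 6.52 in low-starch 100 d replicate 3 and 10.8 in low-starch 65 d replicate 3, and 31.1 to 58.1 in the 16 other libraries. The median FPKM over the 92 unigenes was 958 ± 246 FPKM in high-starch and 1234 ± 336 FPKM in low-starch libraries (SD, n = 9 each), with 1016 and 1050 FPKM in the libraries that stood apart. It was highest in low-starch 30 d replicate 1, with 2014 FPKM, and this library also held the highest value of 40 of the 92 unigenes. High-starch 65 d replicate 1 held the highest value of 19 unigenes and high-starch 30 d replicate 2 the lowest value of 16. Low-starch 30 d replicate 1 also had the largest 1-read value, and the part of depth in these levels was not tested.

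Being abundant everywhere did not make a unigene the most abundant in each library. The highest unigene of the library was not one of the 92 in 10 of the 18 libraries, 7 of them high-starch and 3 low-starch. Of the 10 most abundant unigenes of a library, 2 to 9 belonged to the 92 in high-starch libraries (mean 5.33) and 6 to 10 in low-starch libraries (mean 8). In high-starch libraries the mean was 7.67, 4.67 and 3.67 at 30, 65 and 100 days, and in low-starch libraries 9.33, 8 and 6.67. Of the 92 most abundant unigenes of a library, 41 to 57 belonged to the 92.

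Most of the 92 unigenes varied several-fold between libraries. The SD of log2 FPKM over the 18 libraries ran from 0.27 to 1.74 with a median of 0.64, and the highest library exceeded the lowest 1.95- to 83.5-fold, with a median of 5.23-fold. Less than 3-fold separated the highest and lowest library for 13 unigenes and less than 5-fold for 45, while 18 varied 10-fold or more. The rule sets a floor under each value, so it limits the spread at every mean, and the spread is given with no test and is not set against that of other unigenes.

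The steadiest was Iba_18572, with an SD of log2 FPKM of 0.27. It had 424 to 605 FPKM with a median of 506 in high-starch libraries and 463 to 909 FPKM with a median of 598 in low-starch libraries. Its highest value was in low-starch 30 d replicate 1, and its 17 other values spanned 424 to 762 FPKM. The most variable was Iba_37266, at rank 5, with an SD of 1.74. It had 1022 to 4786 FPKM with a median of 1539 in high-starch libraries and 1354 to 85394 FPKM with a median of 5248 in low-starch libraries. As for rank 1, its top values were in low-starch 100 d replicate 3 (85394 FPKM) and 65 d replicate 3 (42585 FPKM), and the next was 11497 FPKM in low-starch 30 d replicate 1. The 3 unigenes with the largest SDs had ranks 5, 2 and 1, and the 6 with the smallest SDs all had ranks of 74 or beyond.

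**Figure D3:**
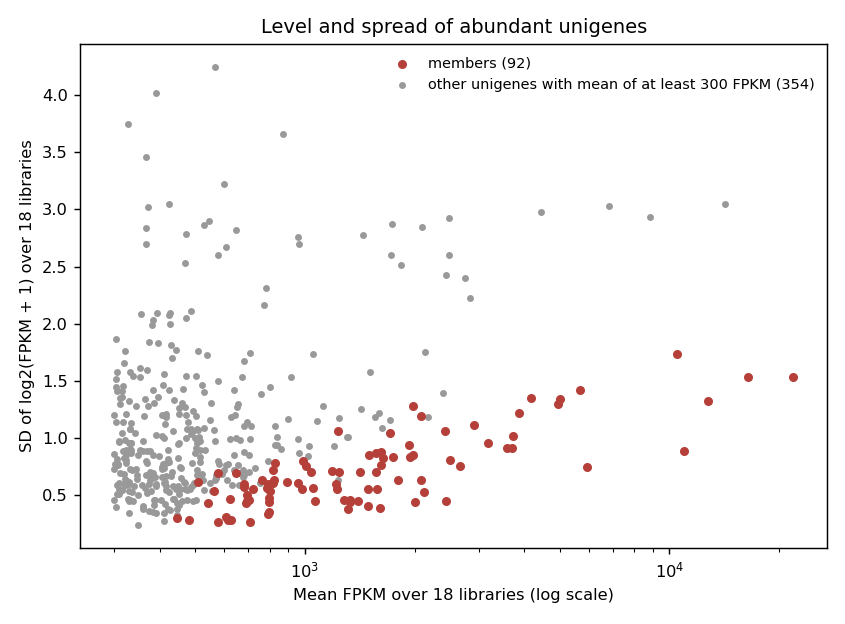
SD of log2(FPKM + 1) over the 18 libraries against mean FPKM (log axis) for the 92 unigenes and for the 354 other unigenes with a mean of 300 FPKM or more, 1 point per unigene. The largest SDs of the 92 are those of ranks 1, 2 and 5, at the right. Each of the 354 others has at least 1 library below 300 FPKM, which by itself goes with a larger SD.

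Much of this spread lay between replicates of the same cultivar and age. For the median unigene of the 92, 11.6% of the variance of log2(FPKM + 1) lay between cultivars, 22.5% between ages within a cultivar and 62.6% between replicates. The medians over all 32529 unigenes tested were 13.2, 19.5 and 59.1%. All of these are shares of the sum of squares, not corrected for degrees of freedom, which were fewest between cultivars and most, 12, between replicates. The larger share between ages than between cultivars is therefore not read as a larger effect of age. More than 50% of the variance lay between cultivars for 3 of the 92 unigenes, against 4501 of the 32529 tested and 30 of the 354 others with a mean of 300 FPKM or more. The median SD of log2 FPKM between the 3 replicates was 0.63, 0.73 and 0.34 at 30, 65 and 100 days in high-starch roots and 0.58, 0.52 and 0.32 in low-starch roots. Replicates differed 2-fold or more for 56, 62 and 26 of the 92 unigenes at these ages in high-starch roots, and for 55, 42 and 27 in low-starch roots. By both of these measures the replicates at 100 days lay closest together in each cultivar. This did not hold for rank 1, which ran from 9684 to 184339 FPKM over the 3 low-starch replicates at 100 days. The share of the FPKM sum held by the 92 also varied most in that group, at 27.7% ± 15.0 (SD, n = 3).

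The order of the 92 unigenes was partly kept between libraries. Spearman's rho across the 92 averaged 0.69 over the 153 pairs of libraries and ran from 0.33 to 0.94. These are correlations across unigenes, which are not independent, and pairs share libraries, so no p is given. The mean was 0.75 for the 18 pairs within a group, 0.70 for the 54 pairs of the same cultivar at different ages, 0.69 for the 27 pairs of different cultivars at the same age and 0.66 for the 54 pairs that differed in both. Within high-starch libraries the mean was 0.64, and within low-starch libraries it was 0.78. Replicates had a mean rho of 0.65, 0.58 and 0.83 at 30, 65 and 100 days in the high-starch cultivar and 0.73, 0.86 and 0.88 in the low-starch cultivar.

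Only ranks 1 and 4 were among the first 10 of the 92 in all 18 libraries, while 31 of the unigenes were among the first 10 at least once. The leading unigene of the 92 was rank 4 in 7 libraries, rank 1 in 6, rank 6 in 3 and rank 14 in 2. Rank 4 kept places 1 to 8. It had 3114 to 11847 FPKM with a median of 6111 in high-starch libraries and 4922 to 26846 FPKM with a median of 11321 in low-starch libraries, and unlike rank 1 it had its highest value in low-starch 65 d replicate 1. Rank 14 led in high-starch 65 d replicate 1, with 12606 FPKM, and in high-starch 100 d replicate 1, with 5917 FPKM, and was at place 76 in another library.

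Many of the 92 took widely different places. Of them, 14 stayed in the upper 46 places in all 18 libraries and 17 in the lower 46, and 47 moved by 46 places or more. Rank 20 moved between places 3 and 90. Its levels ran from 825 to 7788 FPKM with a median of 3159 in high-starch and from 595 to 3951 FPKM with a median of 1655 in low-starch libraries. By group means, the orders of low-starch roots at 100 and 65 days were closest (rho 0.96), followed by those of high-starch roots at 65 and 30 days (0.93). The order of high-starch roots at 100 days had a rho of 0.71 and 0.75 with its own cultivar at 30 and 65 days. With low-starch roots at 30, 65 and 100 days its rho was similar, at 0.71, 0.70 and 0.79.

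**Figure D4:**
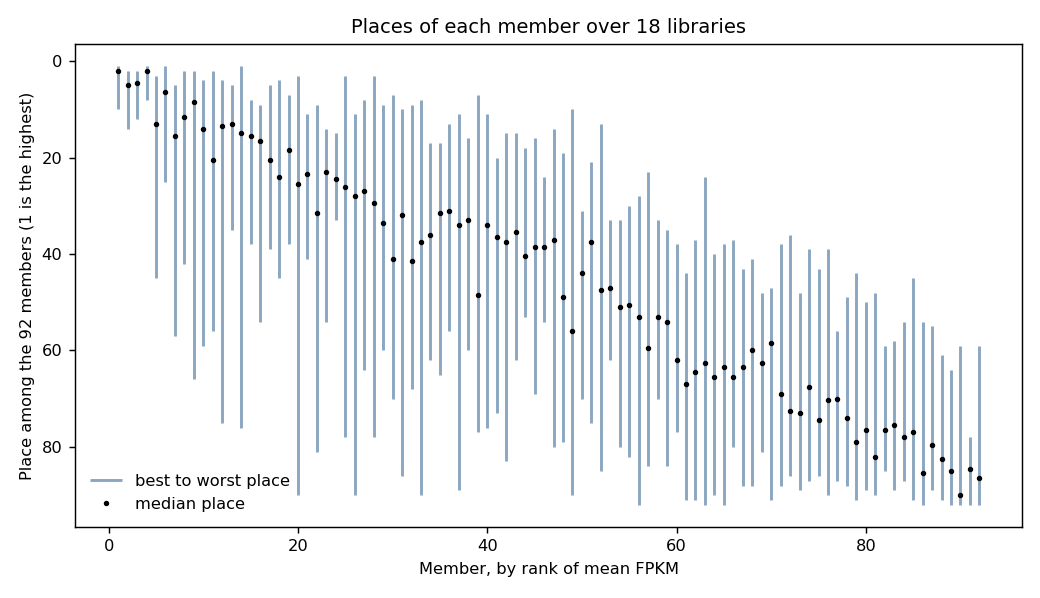
Place of each of the 92 unigenes among the 92 (1 is the highest level in a library), with a line from its best to its worst place over 18 libraries and a point at its median place, against its rank of mean FPKM. Rank 4 spans places 1 to 8, whereas rank 20 spans places 3 to 90.

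Some of the 92 unigenes varied together and had neighbouring IDs. Within 10 ID numbers of each other lay 19 pairs, which involved 20 of the unigenes. The SD of their log2 ratio over the 18 libraries had a median of 0.33, against 0.84 over all 4186 pairs of the 92. Every pair among ranks 36, 53, 61, 67 and 89, a single run of IDs, counts in the 19, so that median leans on this run. Ranks 10 and 8, 5 ID numbers apart, kept the closest ratio of all pairs. The level of rank 10 was 0.77 to 0.90 times that of rank 8 in every library, although rank 10 varied 16.8-fold and rank 8 17.3-fold over the libraries. Ranks 2 and 3, 6 ID numbers apart, had a mean ratio of 0.999, averaged on the log2 scale, with a range of 0.81 to 1.73. The highest ratio was that in low-starch 65 d replicate 3, with 68201 FPKM for rank 2 against 39468 FPKM for rank 3. Close ratios were not confined to neighbouring IDs: ranks 44 and 89, 13537 ID numbers apart, had the next smallest SD after ranks 10 and 8, 0.125. Neighbouring IDs may be near-identical transcripts between which reads are split, so the levels of such pairs are uncertain. Their sequences were not used here.

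Whether the constantly abundant unigenes differed between Chuanshu 218 and 15-94 was tested for each of them in a fit over all 32529 unigenes that reached 1 FPKM in 3 or more libraries, which included all 92. A unigene was called where limma gave it an adjusted p under 0.05 (Benjamini-Hochberg) and its difference on the log2(FPKM + 1) scale was 2-fold or more. Averaged over the 3 ages, 7 of the 92 (7.61%) were called, where 18.3% of all unigenes tested were. All 7 were lower in the high-starch cultivar and 0 were higher, where 7.21% of all unigenes were called lower and 11.1% higher. The limit of 300 FPKM in both cultivars leaves little room for large differences near it, and of the 354 other unigenes with a mean of 300 FPKM or more, 57 (16.1%) were called, 19 higher and 38 lower. By adjusted p alone, 11 of the 92 passed, each of them lower in the high-starch cultivar, where 27.0% of all unigenes passed and 10.5% were lower. At an unadjusted p under 0.05 were 24 of the 92, where 38.2% of all unigenes were. Without the 2 low-starch libraries that stood apart, 5 were called, those of ranks 9, 11, 16, 27 and 37, where 17.1% of all unigenes were. With relative depth as a covariate 2 were called, rank 37 lower and rank 49 higher in the high-starch cultivar, where 13.4% of all unigenes were. In bulk roots, fewer cells of a type and less RNA per cell cannot be told apart.

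The differences called were among the more abundant of the 92, at ranks 5, 9, 10, 11, 16, 27 and 37. Ranks rest on the same libraries and the limit of 300 FPKM leaves little room for large differences near it. This placing is therefore partly built in. Iba_20697, at rank 9, had the clearest one. At 30 days it had 2623, 2965 and 1257 FPKM in high-starch roots, against 6483, 4082 and 11457 FPKM in low-starch roots. At 65 days it had 3410, 539 and 667 FPKM in high-starch roots, against 9501, 6968 and 8886 FPKM in low-starch roots. At 100 days it had 2448, 5645 and 1784 FPKM in high-starch roots, against 6028, 9670 and 4862 FPKM in low-starch roots. At 30 and 65 days each high-starch value lay below each low-starch value, while at 100 days the highest high-starch value lay above the lowest low-starch value. The averaged log2 difference was -1.93 (SE 0.43), with an adjusted p of 0.00248 by limma, and the call was made without each of the 18 libraries in turn. With relative depth as a covariate the difference was -1.55 and the adjusted p 0.0788.

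Iba_37266, the most variable of the 92, was lower in the high-starch cultivar by the largest averaged log2 difference of the 92, -1.96 (SE 0.67, limma adjusted p 0.0386). It averaged 2519 ± 1544 FPKM in high-starch and 18458 ± 28079 FPKM in low-starch libraries (SD, n = 9 each), and the low-starch mean was carried by the 2 libraries that stood apart. Without them the log2 difference was -1.16 and the adjusted p 0.132, which is no call. With relative depth as a covariate the difference was -0.51 and the adjusted p 0.738, and with no filter the adjusted p was 0.136, neither of them a call. The call was lost in 10 of the 18 fits that left out 1 library, with an adjusted p of 0.0845 without low-starch 65 d replicate 3 and 0.0693 without low-starch 100 d replicate 3. It was also lost without high-starch 30 d replicate 2 or 3, 65 d replicate 2 or 3, or 100 d replicate 1 or 2, and without low-starch 30 d replicate 1 or 3. Over these fits the difference stayed between -2.24 and -1.47.

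The other 5 were lower in the high-starch cultivar by log2 differences of -1.66 (rank 11, limma adjusted p 0.00725), -1.61 (rank 16, 0.0060), -1.47 (rank 10, 0.0471), -1.09 (rank 37, 0.0061) and -1.03 (rank 27, 0.0234). Rank 16 had 651 to 2985 FPKM with a median of 1210 in high-starch and 2140 to 6801 FPKM with a median of 4509 in low-starch libraries. Rank 11 had 845 to 3511 FPKM with a median of 1333 in high-starch and 1468 to 13848 FPKM with a median of 4960 in low-starch libraries. In both, the cultivars overlapped in the upper high-starch and lower low-starch libraries, and both calls were made without each of the 18 libraries in turn. With relative depth as a covariate neither was called: rank 16 then had a difference of -0.68 (limma adjusted p 0.351) and rank 11 one of -1.41 (0.120). That covariate also ended the call of rank 27, at -0.43 (limma adjusted p 0.513), and turned the difference of rank 10 to 0.15 (limma adjusted p 0.882). Ranks 10 and 27 also lost their calls with no filter, ranks 27 and 37 with a common FPKM sum, and ranks 10, 27 and 37 after quantile normalization. Rank 37 lost its call without high-starch 30 d replicate 1, the library with its lowest value of 387 FPKM. Rank 27 lost it in 5 such fits, those without high-starch 30 d replicate 2, 65 d replicate 2 or 100 d replicate 3, or low-starch 30 d replicate 1 or 65 d replicate 1. Rank 10, whose reads may be shared with rank 8, lost it in 13 of 18 (it was kept without high-starch 30 d replicate 1 or 65 d replicate 1, or low-starch 30 d replicate 2, 65 d replicate 2 or 100 d replicate 3).

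In the opposite direction the largest difference was that of Iba_24474, at rank 49, with 0.76 (log2, SE 0.42, limma adjusted p 0.190), which is not a call. It was called after quantile normalization, which called 17.1% of all unigenes, with 1.11 (limma adjusted p 0.0274), and with relative depth as a covariate, with 1.75 (limma adjusted p 0.0212). It had 4816, 1629 and 1362 FPKM at 30 days in high-starch roots, against 1432, 365 and 1311 FPKM in low-starch roots. At 65 days it had 2437, 649 and 1694 FPKM in high-starch roots, against 1272, 460 and 564 FPKM in low-starch roots. At 100 days it had 541, 1213 and 330 FPKM in high-starch roots, against 658, 1063 and 331 FPKM in low-starch roots. The cultivars overlapped at each age, and the highest value came from 1 library, high-starch 30 d replicate 1.

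Over the 92 unigenes the averaged log2 difference was below 0 for 76, with a median of -0.29, against a median of 0.17 over all unigenes tested. The 354 others with a mean of 300 FPKM or more also had a median of -0.29, with 239 of them below 0. With relative depth as a covariate 40 of the 92 were below 0 and the median was 0.16, against 0.03 over all unigenes. The median of the 92 was 0.46 below that of all unigenes as deposited, 0.39 below it with each library brought to a common FPKM sum, 0.14 below it after quantile normalization and 0.13 above it with the depth covariate. A common FPKM sum moved the median of all unigenes to 0.33, and 53 of the 92 were then below 0. Relative depth differed between the cultivars, so with this covariate cultivar and depth cannot be fully told apart. None of the 92 had all 9 high-starch values on 1 side of all 9 low-starch values, where 5.90% of all unigenes did.

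**Figure D5:**
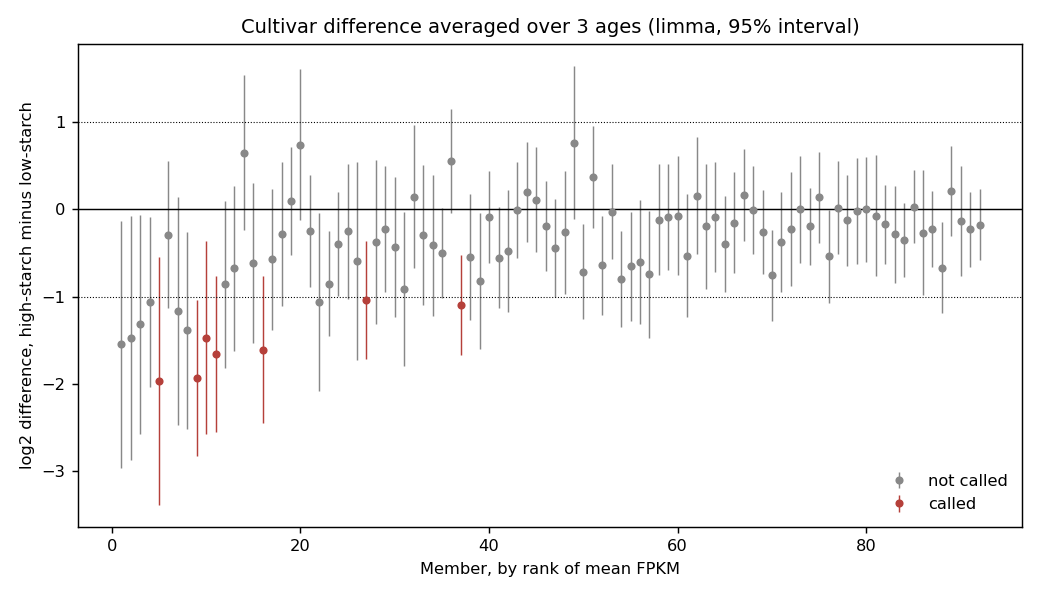
Log2 difference of high-starch minus low-starch, averaged over 3 ages, for each of the 92 unigenes by rank of mean FPKM, with 95% intervals from limma and dotted lines at 2-fold. The 7 called unigenes all lie below 0 and at ranks 5 to 37, a placing partly built in by the limit and by ranks from the same libraries. Iba_24474 at rank 49 has the highest point at 0.76.

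Taken age by age, few of these differences passed. At 30 days 0 of the 92 were called by limma, where 7.15% of all unigenes were, and 6 had an unadjusted p under 0.05, where 19.9% of all unigenes had. At 65 days 2 were called, where 10.2% of all unigenes were. These were rank 9 (log2 difference -2.97, adjusted p 0.0141) and rank 11 (-2.66, adjusted p 0.0263), both lower in the high-starch cultivar, where 4.03% of all unigenes were called lower. An unadjusted p under 0.05 was reached by 5, where 23.3% of all unigenes reached it. At 65 days 0 were called without high-starch 65 d replicate 2, without high-starch 65 d replicate 3 or without low-starch 65 d replicate 3, and 1 without low-starch 65 d replicate 1, where 7.12, 7.96, 6.24 and 7.65% of all unigenes were, in that order. At 100 days 0 were called, where 9.14% of all unigenes were, and 12 had an unadjusted p under 0.05, where 24.2% of all unigenes had. At 65 days 0 were also called without both low-starch libraries that stood apart, where 5.84% of all unigenes were. At 30 days quantile normalization called rank 49 alone, where it called 6.64% of all unigenes. Array weights, in which limma gives less weight to libraries that vary more, called 4 at 30 days and 12 at 100 days, where they called 17.3 and 27.9% of all unigenes. Separate fits of the 6 libraries of each age called 0 at 65 days and 6 at 100 days, where they called 8.73 and 16.9% of all unigenes.

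Counting libraries without overlap, all 3 high-starch values lay below all 3 low-starch values for 11 of the 92 at 30 days, 10 at 65 days and 25 at 100 days, where this held for 7.31, 9.91 and 13.7% of all unigenes. The high-starch values lay above for 0, 3 and 1 of the 92, where this held for 12.7, 14.4 and 22.0% of all unigenes. The relative 1-read value did not overlap at 100 days either. It was 0.27 to 0.495 (log2) in high-starch and 0.945 to 1.205 in low-starch libraries, whereas at 30 and 65 days the cultivars overlapped. At 100 days cultivar and depth therefore cannot be told apart in these counts. The difference between ages in the cultivar effect was tested as an interaction, and 0 of the 92 passed (limma, smallest adjusted p 0.945), as did 0 of all unigenes, with 1 of the 92 and 4.53% of all unigenes at an unadjusted p under 0.05.

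In the fit over all libraries no age difference passed for any of the 92. Averaged over cultivars, 0 were called by limma at 65 against 30 days, at 100 against 65 days and at 100 against 30 days, with 2, 1 and 5 at an unadjusted p under 0.05. The share of all unigenes called was 0, 0 and 0.0215%, and the share at an unadjusted p under 0.05 was 8.59, 4.93 and 10.7%. The smallest adjusted p values were 0.485, 0.985 and 0.274. Within the high-starch cultivar 0 were called at 100 against 30 days (0% of all unigenes) and within the low-starch cultivar 0 (0.0400%), with 3 and 2 at an unadjusted p under 0.05 (7.87 and 8.69% of all unigenes). Array weights called 2 at 100 against 30 days within the high-starch cultivar, where they called 4.95% of all unigenes.

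The age differences of 100 minus 30 days nearest to a call were those of rank 37 and rank 20. Rank 37 had 828, 1199 and 1155 FPKM at 100 days in high-starch roots, against 387, 944 and 986 FPKM at 30 days. In low-starch roots it had 2668, 2351 and 3356 FPKM at 100 days, against 1104, 676 and 1215 FPKM at 30 days. The low-starch ages did not overlap and the high-starch ages did, and the averaged log2 difference was 1.03 (SE 0.33, limma adjusted p 0.274). For rank 20 it was 1.41 (SE 0.50, limma adjusted p 0.324). For Iba_24474 it was -1.20 (SE 0.51, limma adjusted p 0.427), and its 3 high-starch values at 100 days (330 to 1213 FPKM) lay below its 3 at 30 days (1362 to 4816 FPKM).

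Of the 92 unigenes, 5 had all 3 high-starch values at 100 days above those at 30 days and 11 had them below, where 8.14 and 7.42% of all unigenes did. In low-starch roots 4 lay above and 7 below, where 6.85 and 5.67% of all unigenes did. Iba_18572, chosen here for its small spread over the same libraries and so given with no test, averaged 498 ± 79.4, 548 ± 79.1 and 537 ± 54.4 FPKM at 30, 65 and 100 days in high-starch roots and 635 ± 240, 646 ± 115 and 596 ± 50.6 FPKM in low-starch roots (SD, n = 3 each).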

How the data were processed

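RNA of 18 root libraries was measured in 6 groups of 3. The authors deposited 1 table of FPKM values, and FPKM is named as the unit per the file headers. The tool edgeR appears in the submitters' processing notes without role or version. Assembler, aligner, counter and scaling steps were not given in the sources used here. As the values were no counts, count models were not applied, and absolute depth is unknown. Relative depth was read from the steps of low values, and 99.3% of library pairs lay within 0.05 (log2) of the fitted values. The step was checked on simulated data.

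The 92 unigenes, the tests and the alternatives were chosen with earlier results of these data known. limma 3.58.1 in R 4.3.3 was fitted to log2(FPKM + 1) of the 32529 unigenes that reached 1 FPKM in 3 or more libraries, as 6 groups with 12 residual degrees of freedom and eBayes with a trend, and was tested on simulated data. Adjustment (Benjamini-Hochberg) ran over all unigenes within each of 10 comparisons. IDs were printed by rule for the highest and lowest mean, the smallest and largest SD, and at most 2 called unigenes per direction with the largest difference, or the largest difference where none was called. The pair of low-starch libraries was left out as an alternative chosen after seeing the data. Descriptions and figures used Python 3.11.15, NumPy 2.4.6, pandas 2.3.3 and matplotlib 3.10.9.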

Additional observations from a re-analysis of the deposited data

Results flagged for a closer look

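For 15 measures and both cultivars the library farthest from the other 8 was examined by Dixon's gap ratio, and 6 of 30 cases passed its 95% critical value. That value flags 1 in 20 only for normally distributed measures set in advance. Most of these measures are FPKM levels of unigenes picked from the same data, and the measures share libraries. The 6 of 30 are therefore not set against a number due to chance. In low-starch 30 d replicate 1 the median of the 92 unigenes was 2014 FPKM, far above the other low-starch libraries. The same library had 757 unigenes at 300 FPKM or more, again far above the others. Low-starch 100 d replicate 3 was far above the others for Iba_29196, with 184339 FPKM, and for Iba_37266, with 85394 FPKM. Iba_24474 had 4816 FPKM in high-starch 30 d replicate 1, far above the other high-starch libraries. Iba_10852, the unigene at rank 27, had 5541 FPKM in low-starch 65 d replicate 1, far above the other low-starch libraries. The cause of these values was not tested.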

How the results depend on the processing

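Called in the averaged cultivar comparison were 7 of the 92 unigenes, where 18.3% of all unigenes were. With no filter 4 were called, with relative depth as a covariate 2 (13.4% of all unigenes) and by adjusted p alone 11 (27.0%). At 30 days, where 0 were called, quantile normalization called 1 (6.64% of all unigenes) and array weights 4 (17.3%). At 65 days, where 2 were called, 0 were called with no filter. There, 0 were also called without both low-starch libraries of the largest shares (5.84% of all unigenes) and with only the libraries compared (8.73%). At 100 days, where 0 were called, no eBayes trend called 3, array weights 12 (27.9% of all unigenes) and only the libraries compared 6 (16.9%). The share of all unigenes is not given for no filter and no eBayes trend. Their counts are therefore not read as particular to the 92. At 100 against 30 days in high-starch roots array weights called 2 (4.95% of all unigenes), against 0. With 200 or 500 FPKM as the limit, 172 or 42 unigenes passed in place of 92, and they held 20.1 or 10.1% of the FPKM sum in high-starch libraries. Brought to a common FPKM sum, the cultivar difference of Iba_17925 turned to 0.063 and that of Iba_18572 to 0.0079. Quantile normalization turned that of Iba_17925 to 0.054. As deposited they were -0.17 and -0.23, neither of them a call. The cause was not tested.

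Leaving out 1 library gave 4 to 10 calls in the averaged comparison, 0 to 3 at 65 days and 0 to 1 at 100 days. The 4 came without high-starch 30 d replicate 2, high-starch 65 d replicate 2 or low-starch 30 d replicate 1. The share of all unigenes called in such fits is given only for some at 65 days. The counts of these fits are therefore not read as particular to the 92. Leaving out 1 library left 92 to 99 unigenes under the rule, shares of 14.4 to 15.1% in high-starch and 21.4 to 25.02% in low-starch libraries, a median SD of 0.57 to 0.65 and a mean rho of 0.67 to 0.70. Deviations of same-numbered libraries had a mean correlation of 0.07 (from -0.46 to 0.62 over 45 pairs). For libraries with other numbers the mean was -0.03 (from -0.60 to 0.48 over 90 pairs). A correlation over 0.1 was found for 20 of the 45 pairs and 23 of the 90. Whether replicate numbers mark paired libraries cannot be told from these values. With a replicate block, 9 were called in the averaged comparison, 3 at 65 days and 1 at 100 days. The share of all unigenes called with this block is not given, so these counts are not read as particular to the 92. Absolute depth is unknown, so no counting interval could be given.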
